A study of Mus musculus with 12 samples.

Results

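The hypoxia and glycolysis genes are 10 genes chosen by symbol, namely Slc2a1, Hk2, Pfkfb3, Pgk1, Ldha, Slc16a3, Adm, Stc1, Egln3 and Ndrg1. All 10 are among the 15774 genes of the count table, and all 10 were kept among the 15635 genes tested. They were followed in sorted astrocytes of the mouse cerebral cortex in 12 RNA sequencing libraries, 2 from each of 6 groups. All groups were wild-type C57BL/6J mice. In the stroke groups the distal middle cerebral artery was tied off for good and both common carotid arteries were closed for 7 min, and cells were taken at day 1, 3, 7, 21 or 60. Sham mice had a skull surface lesion only. The sort marker, the age and sex of the mice and any pooling of animals are not given in the sources used here, so each p-value measures only the spread between these libraries, which may be technical.

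Cells short of oxygen stabilise the alpha subunits of the hypoxia-inducible factor HIF, because the prolyl hydroxylases that mark them for degradation need oxygen. HIF, paired with its partner ARNT, then raises genes for glucose uptake, glycolysis and lactate export, together with secreted peptides that act on vessels and on calcium and phosphate handling. Astrocytes are known as a glycolytic cell type of the brain that passes lactate to neurons.

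The genes are placed on mm10 by the GENCODE annotation, and all are protein-coding. Slc2a1 is at chr4:119108711-119137983, Hk2 at chr6:82725025-82774454, Pfkfb3 at chr2:11471433-11554077, Pgk1 at chrX:106187100-106203699 and Ldha at chr7:46841475-46855627. Slc16a3 is at chr11:120948480-120960868, Adm at chr7:110627661-110629820, Stc1 at chr14:69029238-69041804, Egln3 at chr12:54178981-54203860 and Ndrg1 at chr15:66929318-66969640. Hk2, Pfkfb3, Egln3 and Ndrg1 are on the minus strand and the others on the plus strand. Non-coding genes on the opposite strand share exon bases with Slc2a1 (105 bases), Stc1 (229 bases) and Ndrg1 (419 and 137 bases), and whether counting used strand is not given.

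Promoters of 8 of the 10 genes are in the RefSeq table for GRCm38.p6. Stc1 and Ndrg1 were not matched. The 250 bases before each annotated start were searched on both strands for the core of the HIF response element, ACGTG or GCGTG. Such a core overlaps the E-box CACGTG, which holds ACGTG on both strands and was counted at 2 positions. A core was found in 10 of the 10 promoters of these 8 genes and in 38.6% of all 32851 promoters of that length. These promoters held 50.8% to 73.6% G and C against a median of 52.4% over all promoters, and a match is a description of the letters only. 5 promoters are shown because they carry the core beside different courses after stroke: Ldha, Adm and Slc16a3 were among the genes that rose at day 1, and Pgk1 and Egln3 did not pass the test there. Capitals mark the core on either strand, and each sequence runs 5′ to 3′ along the gene.
Ldha, chr7:46845554-46845803, plus strand: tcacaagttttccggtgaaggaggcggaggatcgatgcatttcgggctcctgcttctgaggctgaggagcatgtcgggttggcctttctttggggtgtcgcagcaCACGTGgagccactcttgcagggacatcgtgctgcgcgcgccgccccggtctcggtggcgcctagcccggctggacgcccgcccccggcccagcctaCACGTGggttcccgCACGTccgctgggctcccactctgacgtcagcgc
Adm, chr7:110627407-110627656, plus strand: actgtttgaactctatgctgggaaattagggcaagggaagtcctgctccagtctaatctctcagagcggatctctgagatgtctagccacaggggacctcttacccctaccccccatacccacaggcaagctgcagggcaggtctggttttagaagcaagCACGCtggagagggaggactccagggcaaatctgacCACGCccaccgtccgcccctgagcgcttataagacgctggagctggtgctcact
Slc16a3, chr11:120948817-120949066, plus strand: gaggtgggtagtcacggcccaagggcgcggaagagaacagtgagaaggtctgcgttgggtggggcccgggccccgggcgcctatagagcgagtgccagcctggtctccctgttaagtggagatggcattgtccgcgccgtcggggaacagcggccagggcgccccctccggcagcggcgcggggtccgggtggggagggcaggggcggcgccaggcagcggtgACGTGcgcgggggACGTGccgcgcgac
Pgk1, chrX:106186850-106187099, plus strand: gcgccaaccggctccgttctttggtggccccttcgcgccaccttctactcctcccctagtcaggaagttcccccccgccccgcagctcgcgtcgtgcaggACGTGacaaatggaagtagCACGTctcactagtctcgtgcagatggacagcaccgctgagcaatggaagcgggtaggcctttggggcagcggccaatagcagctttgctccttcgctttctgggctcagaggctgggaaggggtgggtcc
Egln3, chr12:54203875-54204124, minus strand: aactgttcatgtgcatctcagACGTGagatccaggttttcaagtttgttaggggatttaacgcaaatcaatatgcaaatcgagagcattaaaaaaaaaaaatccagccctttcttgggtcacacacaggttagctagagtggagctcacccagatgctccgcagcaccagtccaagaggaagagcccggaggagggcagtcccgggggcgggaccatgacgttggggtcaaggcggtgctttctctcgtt
The Ldha stretch holds the core at 5 positions, the Adm, Slc16a3 and Pgk1 stretches at 2 each and the Egln3 stretch at 1. The 5 positions of Ldha include 2 E-boxes, each counted at 2 positions. A second Ldha promoter, chr7:46846832-46847081, is not shown and holds the core at 1 position, as GCGTG.

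Total counts ran from 13006008 to 16575045 in the 6 replicate 1 libraries and from 97056596 to 156128922 in the 6 replicate 2 libraries, 6.30 to 9.63 times as many. The low members therefore rest on few counts in the first sham library, with 15 for Stc1, 27 for Hk2, 37 for Adm and 45 for Slc16a3. The label of the cells was checked against marker genes. All 14 astrocyte markers had counts in every group, and together they took 0.755% to 0.941% of the counts in sham and 0.110% to 0.200% at day 7. Most of the sham share was Aldoc, at a mean of 5261 CPM, which is also among the glycolytic enzymes below. At day 7 9 of the 14 fell, 3 did not pass and 2 rose, Gja1 by 2.27 and Gjb6 by 1.31. There 19.8% of all genes were lower and 23.2% higher. The 10 fibroblast markers, led by Col3a1, Col1a1 and Col1a2, took 0.00700% to 0.00775% in sham and 8.32% to 20.1% at day 7. From day 3 onward they took more of the counts than the astrocyte markers in each of the 8 libraries. Neuron markers took 0.853% and 1% in sham and oligodendrocyte lineage markers 1.08% and 0.929%, near the share of the astrocyte markers. In the stroke libraries they took 0.0144% to 0.175% and 0.0466% to 0.222%, in that order. The part of these shares in the differences from sham was not tested. In such sorted bulk samples fewer cells of a type and less RNA per cell cannot be told apart.

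Levels are CPM, counts scaled to a common library size with TMM factors, differences from sham are log2 fold changes ± standard error, and adjusted p-values come from edgeR's quasi-likelihood F test with Benjamini-Hochberg adjustment over all genes tested, called under 0.05. After stroke most of these genes were higher than in sham, each at its own times. Stc1 and Adm had their highest levels at day 1, Pfkfb3 and Hk2 at day 7, and Ndrg1 was raised at days 21 and 60. Ldha and Hk2 were higher at all 5 times, and Egln3 at day 60 gave the only call below sham in this fit. The replicate block also called Pgk1 lower, at days 7, 21 and 60. The 10 genes, and the lists of other genes below, were chosen with earlier results of these data known. Their counts beside those of all genes are therefore a description and no test of a set. At day 1, 6 of the 10 members were higher and 0 lower, while 16.7% of all tested genes were higher and 13.9% lower. At day 3 it was 6 and 0, against 18.0% and 14.2% of all genes. At day 7 it was 4 and 0, against 23.2% and 19.8%. At day 21 the members again gave 6 and 0 (all genes 17.8% and 15.4%), and at day 60 they gave 4 and 1 (16.8% and 14.8%). At the 4 earlier times 0 members were lower at an unadjusted p under 0.05, and the DESeq2 test also called 0 lower. The median log2 fold change of the members was 1.75, 1.49, 1.12, 1.52 and 1.01 at the 5 times in order, against 0.06, 0.16, 0.13, 0.07 and 0.01 over all genes. Over the 6 groups together 7 members passed, in a table where 42.7% of all genes did: Stc1, Adm, Slc16a3, Pfkfb3, Egln3, Ndrg1 and Hk2. Slc2a1 (adjusted p = 0.0552), Ldha (0.0598) and Pgk1 (0.102) did not pass this joint test.

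**Figure D1:**
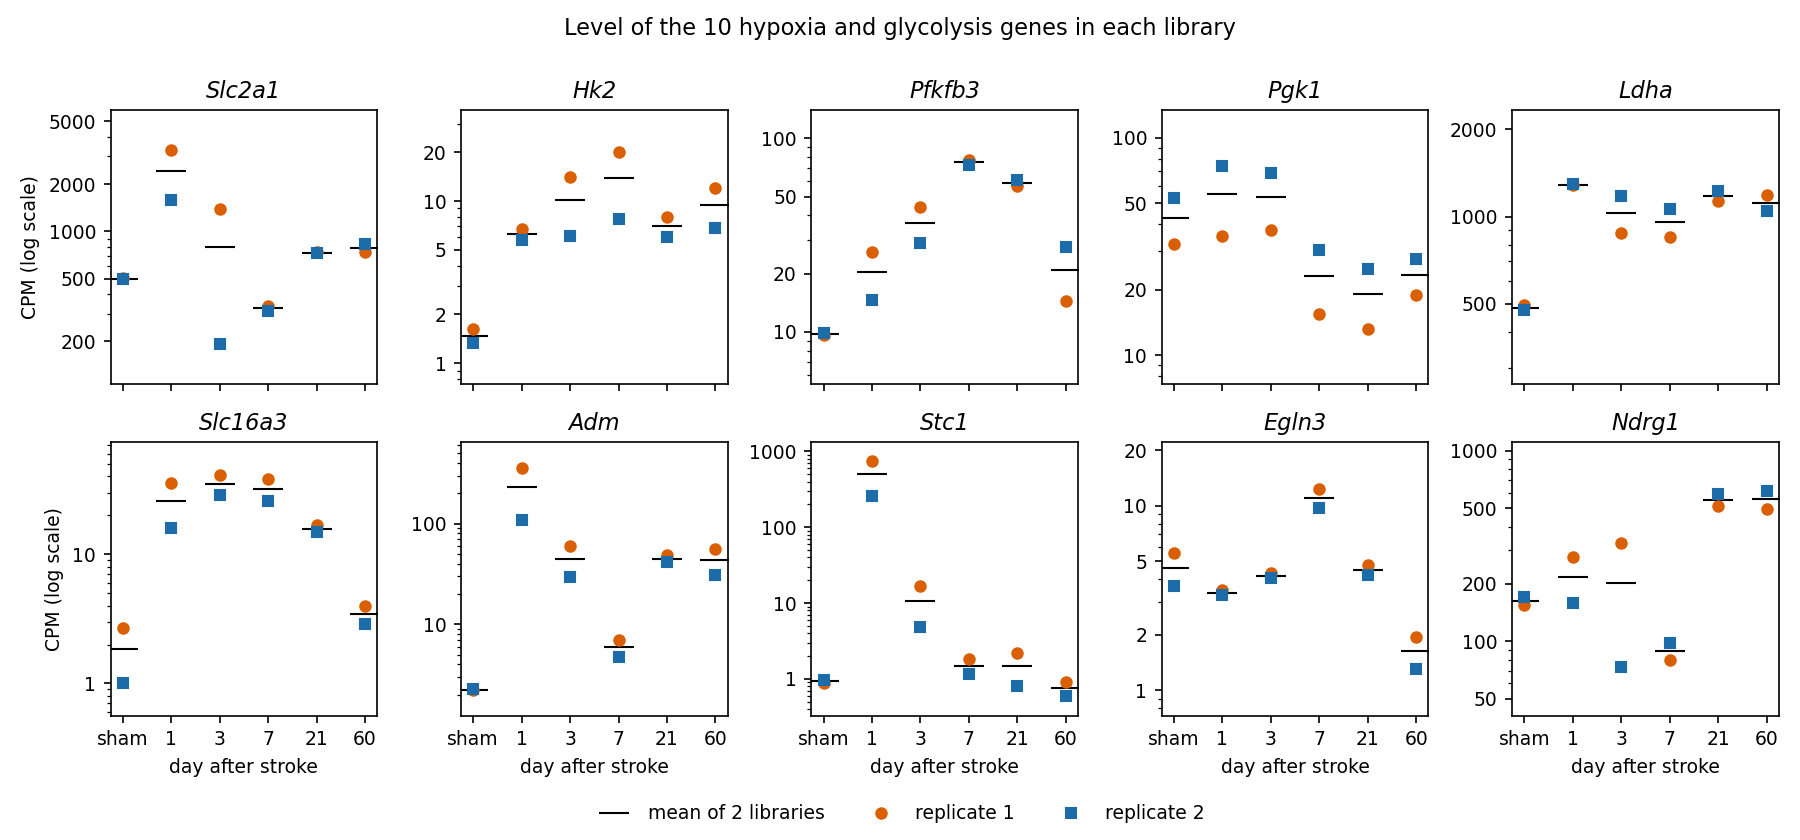
Level in CPM (log axis, its own range in each panel) of each gene in the 2 libraries of every group; circles are replicate 1, squares replicate 2 and bars the mean. Adm and Stc1 spike at day 1, Adm is high again at days 21 and 60, and the 2 day 3 libraries lie far apart for Slc2a1 (1391 and 192 CPM) and Ndrg1 (329 and 73.1 CPM).

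**Figure D2:**
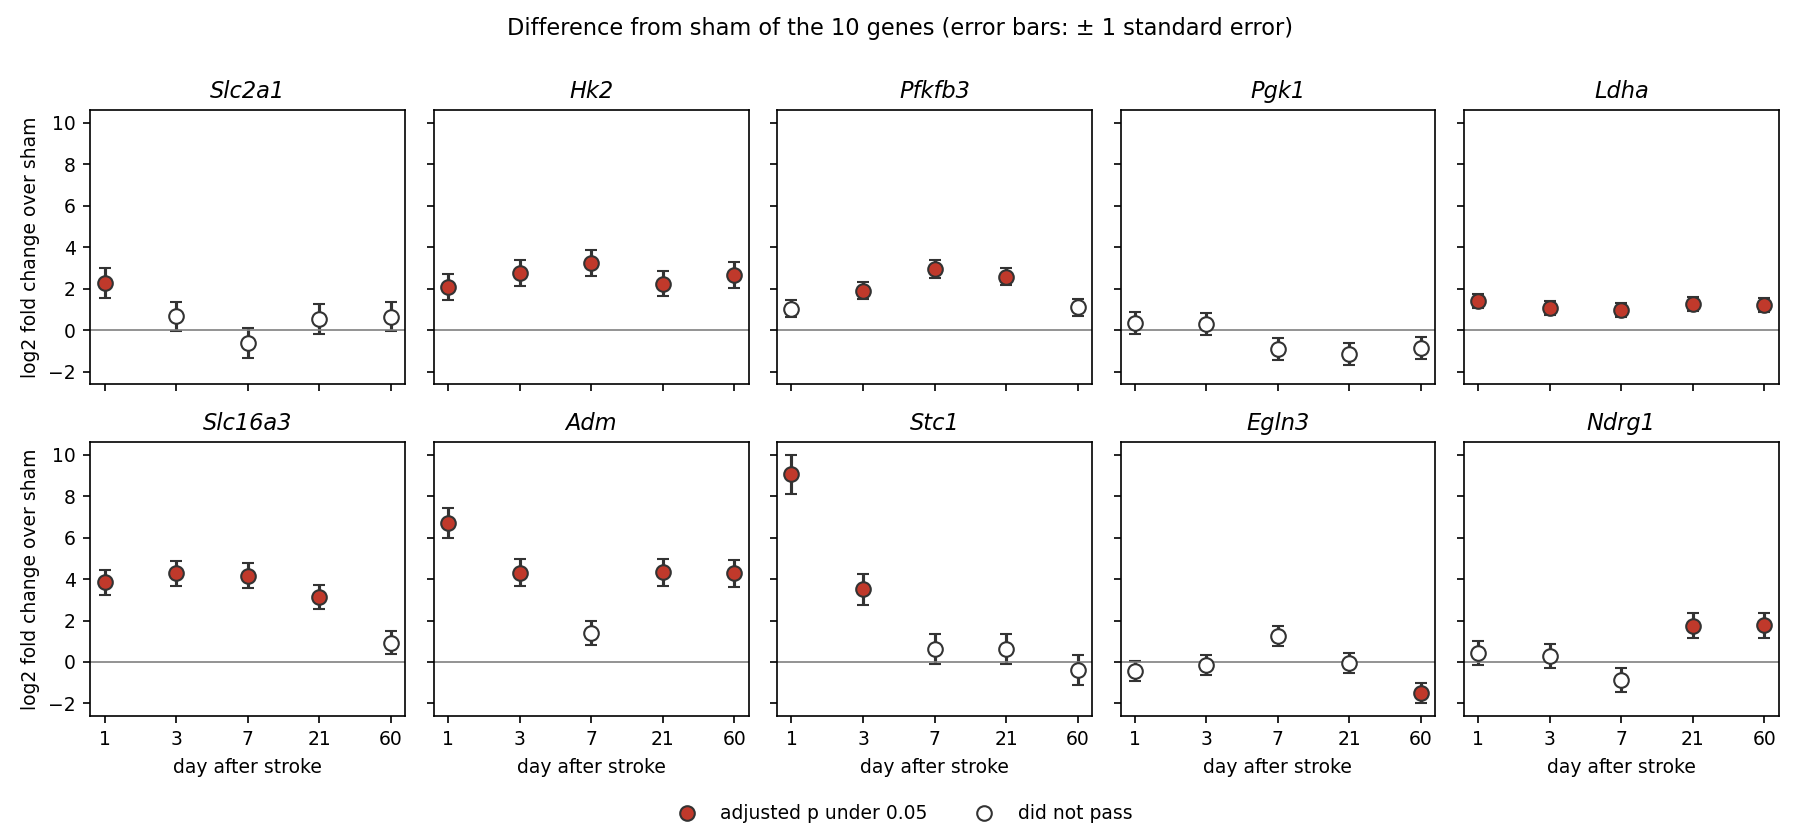
Log2 fold change over sham of each gene at the 5 times, with bars of ± 1 standard error; filled points passed an adjusted p of 0.05. Slc16a3 passes from day 1 to day 21, Adm passes at every time but day 7, and Pgk1 at none.

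Slc2a1 encodes GLUT1, the glucose transporter of astrocytes and of the blood-brain barrier endothelium. It stood at 505 and 495 CPM in the sham libraries and at 3270 and 1573 at day 1. Both day 1 libraries lay above both sham libraries, a rise of 2.28 ± 0.74 (adjusted p = 0.0403). The call was lost without any one of 9 libraries (both of sham, replicate 1 of day 1 and both of days 7, 21 and 60), at adjusted p = 0.0544 to 0.209, and in a fit of the 2 groups alone (0.0606). At day 3 the libraries held 1391 and 192 CPM, one above and one below sham. Their fitted difference of 0.66 ± 0.71 did not pass, was 1.40 without day 3 replicate 2 (adjusted p = 0.0452) and -1.42 without day 3 replicate 1 (adjusted p = 0.0711). At later times Slc2a1 had 337 and 312 CPM on day 7, then 734 and 723 on day 21, then 742 and 825 on day 60, and none of these passed. The differences of day 3 and day 60 from day 1, -1.61 ± 0.72 and -1.63 ± 0.72, did not pass. The first passed without day 3 replicate 1 (adjusted p = 0.0118) and the second without either day 3 library (0.0290 to 0.0301).

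The summed share of endothelial markers was high in the libraries where Slc2a1 was high. The 14 markers took 0.171% and 0.317% of the counts in sham, 0.988% and 0.725% at day 1, and 0.567% and 0.140% in the 2 day 3 libraries. At day 1 6 of the 14 rose (Pecam1, Cdh5, Esam, Emcn, Flt1 and Kdr), 0 fell and 8 did not pass, among them the 3 most abundant, Ly6c1 (1.27), Cldn5 (1.23) and Slco1a4 (-0.18). None of the 14 was at 0 in any group. The high and the low day 3 library for Slc2a1 were thus the high and the low one for these markers. Over the 12 libraries log2 CPM of Slc2a1 and the log2 share of these markers had a Pearson r of 0.897. The 2 genes most like Slc2a1 in pattern were Acer2 and Flt1, an endothelial receptor of vascular growth factor, each at r = 0.965. These values share libraries and depth and describe the pattern only. The part of endothelial RNA in the Slc2a1 result was not tested.

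**Figure D3:**
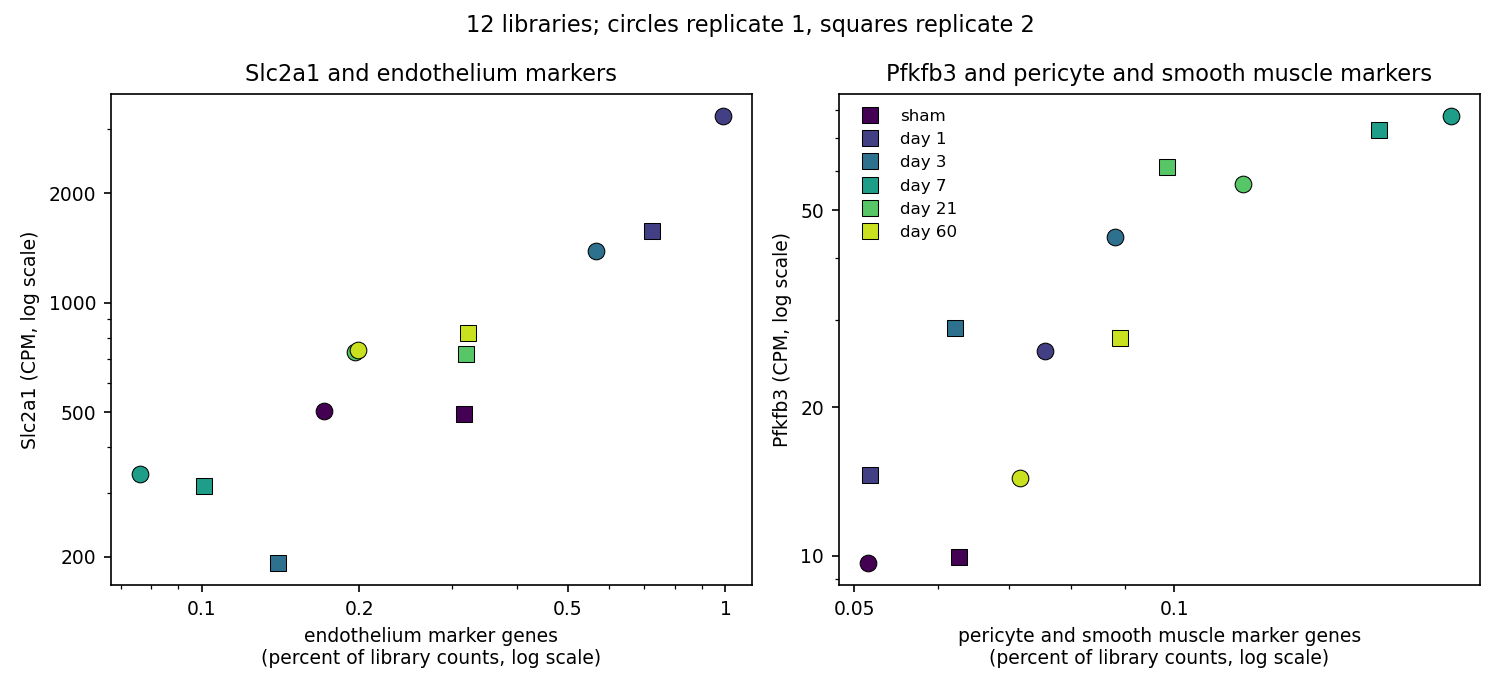
Left, Slc2a1 CPM against the percent of counts in 14 endothelium markers; right, Pfkfb3 CPM against the percent in 10 pericyte and smooth muscle markers (log axes, 1 point per library, colour for the group). The 2 day 1 libraries and day 3 replicate 1 are highest in both measures on the left, and the 2 day 7 libraries on the right.

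Hk2 encodes hexokinase 2, an inducible enzyme of the first step of glycolysis. It was low in sham, at 1.61 and 1.34 CPM, and every stroke library was above both sham libraries. The day 1 libraries had 6.73 and 5.74 CPM, the day 3 libraries 14.1 and 6.07, and the day 7 libraries 20.2 and 7.70. Day 21 gave 8.01 and 5.98, and day 60 gave 11.97 and 6.84. The rise over sham was largest at day 7, at 3.24 ± 0.64 (adjusted p = 0.00263), and was called at the other times too. It was 2.09 ± 0.61 for day 1, 2.78 ± 0.63 for day 3, 2.25 ± 0.62 for day 21 and 2.68 ± 0.63 for day 60. The day 7 call was kept without each of the 12 libraries. The call at day 1 was lost without either sham library or either day 1 library (adjusted p = 0.0537 to 0.135) and in a fit of the 2 groups alone (0.0627). That at day 3 was lost without sham replicate 2 or day 3 replicate 1 (0.0541 to 0.0622). That at day 21 was lost without either sham or either day 21 library (0.0505 to 0.103), and that at day 60 without either sham library or day 60 replicate 1 (0.0539 to 0.0685). The genes nearest to Hk2 in pattern were Junb (r = 0.966), an early response transcription factor, and Gem (0.962). Log2 CPM of Hk2 had r = 0.845 with the log2 share of the 11 leukocyte markers, which took 0.00183% to 0.00296% of the counts in sham and 0.382% to 0.398% on day 7, and 0.805 with that of the fibroblast markers. Their part in the Hk2 result was not tested. Hk1, the hexokinase found in most cells, fell at days 3, 7, 21 and 60, by 1.66, 1.38, 1.20 and 1.42 on the log2 scale.

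Pfkfb3 makes the fructose 2,6-bisphosphate that speeds up phosphofructokinase. It was highest on day 7. The sham libraries held 9.68 and 9.93 CPM, those of day 1 26.0 and 14.6, those of day 3 44.2 and 29.0 and those of day 7 77.7 and 72.9. It was still at 56.7 and 61.3 at day 21 and at 14.4 and 27.6 at day 60. All stroke libraries lay above both sham libraries. The rise was 1.90 ± 0.41 at day 3 (adjusted p = 0.00727), 2.94 ± 0.43 at day 7 (0.000547) and 2.59 ± 0.42 at day 21 (0.00169), and these 3 calls were kept under all alternatives run. Day 1 (1.05 ± 0.41, adjusted p = 0.0756) and day 60 (1.10 ± 0.41, 0.0626) did not pass. Day 60 passed with the replicate number as a block (0.0388) and without day 60 replicate 1 (0.0400), and day 1 passed without day 1 replicate 2 (0.0494). Pericyte and smooth muscle markers took 0.0515% and 0.0628% of the counts in sham and 0.182% and 0.156% at day 7, and their log2 share had r = 0.885 with Pfkfb3 over the 12 libraries. At day 7 most of that share came from Pdgfrb, which fibroblasts also express and which had 16.1 and 25.8 CPM in sham and 1665 and 1974 there. Of the 10 markers 3 rose and 3 fell there, and those that fell were the smooth muscle genes Acta2, Tagln and Myh11. For the fibroblast markers r was 0.838, and the part of either cell type was not tested. The nearest genes in pattern were Csf3r (r = 0.956) and Gmip (0.954). Over all genes 16.7% to 23.2% were higher and 13.9% to 19.8% lower at the 5 times. Of the related genes on the list 3 were tested, too few to set against these shares. In edgeR 0 of them passed at any of the 5 times, with at most 1 at an unadjusted p under 0.05 and 1 called by DESeq2 at day 3. The 2 most abundant of them, Pfkfb2 and Pfkfb4, did not pass at day 7 either: Pfkfb2 had 9.08 and 10.5 CPM in sham and 9.27 and 7.96 there, and Pfkfb4 had 8.24 and 5.89 in sham and 24.3 and 10.3 there (adjusted p = 0.0665).

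Pgk1 encodes phosphoglycerate kinase, an enzyme of the steps of glycolysis that yield ATP. No comparison called it. The sham libraries had 32.6 and 53.0 CPM, those of day 1 had 35.4 and 74.3 and those of day 3 had 37.8 and 68.7. Day 7 gave 15.5 and 30.5, day 21 gave 13.3 and 25.0 and day 60 gave 19.0 and 27.6. Replicate 2 was above replicate 1 in all 6 groups, and the 6 libraries of days 7, 21 and 60 lay below both sham libraries. With the replicate number as a block Pgk1 was lower than sham at day 7 (-0.93, adjusted p = 0.00887), day 21 (-1.19, 0.00312) and day 60 (-0.86, 0.0169). Without the block the differences were -0.89 ± 0.53, -1.16 ± 0.54 and -0.88 ± 0.53. Pgk1 has 4 pseudogenes that match its longest transcript at 95% identity or more over 100 bases or more, covering 68.8% of it, and how reads that match several places were counted is not given. Gapdh and Eno1, glycolytic genes named here after their values were seen, showed the same order more strongly. Gapdh, with 136 such pseudogenes, was at 0.448 to 6.73 CPM in replicate 1 and 39.4 to 198 in replicate 2. Eno1 was at 0 counts in 4 of the replicate 1 libraries and at 189 to 603 CPM in replicate 2. What part of the Pgk1 difference between replicates comes from such copies was not tested. The nearest genes to Pgk1 in pattern were Psmb7 (r = 0.986) and Rpl6 (0.982).

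Ldha encodes the A subunit of lactate dehydrogenase, which turns pyruvate into lactate. It was high in all libraries, with 494 and 476 CPM in sham. The day 1 libraries had 1287 and 1292 CPM, those of day 3 had 881 and 1181 and those of day 7 had 851 and 1062. Day 21 gave 1130 and 1229, and day 60 gave 1189 and 1042. All 10 stroke libraries lay above both sham libraries. For day 1 the rise was 1.41 ± 0.34 (adjusted p = 0.0118), for day 3 1.09 ± 0.33 (0.0309), for day 7 0.98 ± 0.33 (0.0360), for day 21 1.28 ± 0.33 (0.0152) and for day 60 1.20 ± 0.33 (0.0218). Each of the 5 calls was lost without either sham library, and some without others. For day 1 only the sham libraries mattered (adjusted p = 0.0681 to 0.0696). For day 3 it was also lost without day 3 replicate 2, day 7 replicate 1, either day 21 library or day 60 replicate 1 (0.0510 to 0.150). For day 7 this held for day 1 replicate 1, either library of days 7 and 21 and day 60 replicate 1 (0.0521 to 0.185). For day 21 it held for either day 21 library (0.0782 to 0.0892), and for day 60 for day 21 replicate 1 and either day 60 library (0.0556 to 0.116). DESeq2 size factors ended the day 7 call (0.0667), and a fit of the 2 groups alone ended those of days 1, 3 and 7 (0.116, 0.107 and 0.0654). Ldha has 5 near-identical pseudogenes that cover 55.0% of its longest transcript, so its level is uncertain. Log2 CPM of Ldha had r = 0.711 with the log2 share of the fibroblast markers, whose part was not tested. The nearest genes in pattern were Aig1 (r = 0.977) and Bcl3 (0.959). Ldhb, the B subunit, fell by 2.66 at day 7 and by 2.08 at day 21 on the log2 scale. Its level is uncertain too, as 1 near-identical pseudogene covers 76.8% of its longest transcript.

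Slc16a3 encodes MCT4, a transporter that carries lactate out of glycolytic cells. It was low in sham, at 2.69 and 1.01 CPM. The day 1 libraries had 35.7 and 15.95 CPM, those of day 3 had 41.0 and 28.7, those of day 7 had 38.4 and 25.6 and those of day 21 had 16.7 and 14.7. At day 60 it had 3.95 and 2.91 CPM, above the sham values by far less than before. The rise was 3.84 ± 0.60 at day 1 (adjusted p = 0.00246), 4.28 ± 0.61 at day 3 (0.000975), 4.15 ± 0.61 at day 7 (0.000536) and 3.13 ± 0.58 at day 21 (0.00311). These 4 calls were kept under all alternatives run. Day 60 did not pass (0.93 ± 0.55, adjusted p = 0.224) and passed with the replicate block (1.04, 0.0393). Slc16a3 was lower at day 60 than at day 1 by a log2 difference of -2.92 ± 0.57 (adjusted p = 0.0117). This call was lost without day 1 replicate 1 or either day 60 library (0.0527 to 0.0778). The nearest genes in pattern were Nup50 (r = 0.960) and Nrros (0.957). Log2 CPM of Slc16a3 had r = 0.632 with the log2 share of the leukocyte markers, 0.592 with that of the fibroblast markers and -0.78 with that of the neuron markers. The leukocyte markers took 0.529% and 0.361% of the counts at day 3. The part of these cell types in the Slc16a3 result was not tested.

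Adm encodes adrenomedullin, a secreted peptide that widens vessels. By its levels it had 2 separate periods above sham, though the step up from day 7 to day 21 did not pass in edgeR. The sham libraries held 2.21 and 2.27 CPM, the day 1 libraries 359.9 and 108 and the day 3 libraries 59.9 and 29.5. At day 7 it had come down to 6.99 and 4.76 CPM, and it was back at 48.4 and 41.6 at day 21 and 56.5 and 30.6 at day 60. The rise over sham was 6.70 ± 0.72 at day 1, or 104-fold (adjusted p = 0.000618), 4.31 ± 0.65 at day 3 (0.00126), 4.33 ± 0.65 at day 21 (0.00106) and 4.28 ± 0.65 at day 60 (0.00124), and these 4 calls were kept under all alternatives run. Day 7 did not pass (1.38 ± 0.58, adjusted p = 0.0800), passed with the replicate block (1.28, 0.0185) and without either day 1 library (0.0405 to 0.0414). The step from day 1 to day 3 (-2.39, adjusted p = 0.0571) did not pass, but passed without day 1 replicate 2 (0.0248) and in DESeq2 (0.00111). The 2 genes with the nearest pattern were Csf3 (r = 0.987), which encodes the granulocyte growth factor G-CSF, and Gpr182 (0.957).

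The fall of Adm from day 3 to day 7 was -2.93 ± 0.61 (adjusted p = 0.0258). It was lost without day 3 replicate 1 or either day 7 library (0.0764 to 0.176) and in a fit of the 2 groups alone (0.0806). In this comparison 3.06% of all genes were higher and 3.22% lower, and 0 and 2 of the members were, with 2 members higher at an unadjusted p under 0.05 and 1 called higher by DESeq2. The return of Adm from day 7 to day 21 was 2.94 ± 0.61 and did not pass (adjusted p = 0.0689). It passed with the replicate block (0.00610), in the DESeq2 test (5.54e-05), in a fit of the 2 groups alone (0.0447) and without either day 1 library (0.0315 to 0.0325). From day 7 to day 21 edgeR called 0 members in either direction, with 2 higher and 1 lower at an unadjusted p under 0.05, while 0.243% of all genes were higher and 0.198% lower. Day 60 was lower than day 1 for Adm by -2.42 ± 0.59 (adjusted p = 0.0310), a call lost without day 1 replicate 1, day 21 replicate 2 or either day 60 library (0.0512 to 0.164) and in a fit of the 2 groups alone (0.105). The receptor of adrenomedullin is Calcrl paired with RAMP2 or RAMP3. Of the 4 genes on the receptor list, Calcrl, Ramp1, Ramp2 and Ramp3, Calcrl rose at days 7 and 21, by 1.58 ± 0.57 and 1.84 ± 0.57. The partners Ramp2 and Ramp3 did not pass at any time against sham. At day 3 they differed by 1.18 ± 0.46 and -1.09 ± 0.95, and at day 7 by 0.89 ± 0.45 and -2.47 ± 0.99. Ramp1, which is not one of these partners, was at 182 and 179 CPM in sham. It fell at days 3, 7, 21 and 60, by 1.81, 3.15, 3.06 and 2.40 on the log2 scale. At day 7 23.2% of all genes were higher and 19.8% lower, and 4 genes are too few to set against these shares.

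Stc1 encodes stanniocalcin 1, a secreted glycoprotein known for calcium and phosphate handling. It was called above sham at days 1 and 3. The sham libraries held 0.896 and 0.981 CPM, the day 1 libraries 739 and 262 and the day 3 libraries 16.7 and 4.80. By day 7 the libraries were at 1.81 and 1.16 CPM, with 2.18 and 0.806 at day 21 and 0.916 and 0.587 at day 60. The rise at day 1 was 9.05 ± 0.96, or 529-fold (adjusted p = 0.000611), and was kept under all alternatives run. The rise at day 3 was 3.50 ± 0.76 (adjusted p = 0.00707), lost without sham replicate 2 at 0.0508. Days 7, 21 and 60 did not pass. Stc1 gave the only member call between days 1 and 3, a log2 difference of -5.55 ± 0.82 (adjusted p = 0.00572), kept without each library and lost in a fit of the 2 groups alone (0.121). There 3.09% of all genes were higher and 0.480% lower, and of the members 0 were higher, also at an unadjusted p under 0.05 and in DESeq2. It was lower again at day 7 than at day 3, by -2.87 ± 0.74 (adjusted p = 0.0482). That call was lost without any one of 9 libraries (both of sham, replicate 1 of day 3, and both of days 7, 21 and 60) at adjusted p = 0.0546 to 0.260, and in a fit of the 2 groups alone (0.122). Between days 60 and 1 it differed by -9.42 ± 0.97 (adjusted p = 0.000672), kept under all alternatives run. In that comparison 5.78% of all genes were higher and 3.35% lower. The members gave 0 higher and 3 lower, namely Stc1, Slc16a3 and Adm, with 1 higher at an unadjusted p under 0.05 and 0 in DESeq2. The endothelial marker share given with Slc2a1 was also highest at day 1, with replicate 1 above replicate 2 as for Stc1, and had r = 0.717 with Stc1 and 0.669 with Adm over the 12 libraries. Its part in either result was not tested. The nearest genes in pattern were Rras2 (r = 0.973) and Crct1 (0.961).

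Egln3 encodes PHD3, a prolyl hydroxylase that acts on the HIF alpha subunits and is itself raised by HIF in many cells. It did not pass at days 1, 3 and 21, where its libraries held 3.50 and 3.27, 4.30 and 4.07, and 4.76 and 4.23 CPM against 5.56 and 3.67 in sham. At day 7 both libraries, at 12.3 and 9.68 CPM, were above both sham libraries, and at day 60 both, at 1.95 and 1.31, were below. The day 7 difference of 1.26 ± 0.48 did not pass (adjusted p = 0.0573) but passed with the replicate block (0.0270), in DESeq2 (0.0449) and without day 60 replicate 2 (0.0482). The day 60 difference of -1.51 ± 0.49 passed (adjusted p = 0.0398). It was lost without any one of 8 libraries (both of sham and of days 7, 21 and 60) at 0.0512 to 0.189, and in a fit of the 2 groups alone (0.165). The nearest genes in pattern were Cx3cr1 (r = 0.893), a microglial chemokine receptor, and Plagl1 (0.892). The 10 microglia markers took 0.0609% and 0.0739% of the counts in sham, 0.325% and 0.322% at day 3, where Egln3 did not pass, 0.459% and 0.267% at day 7 and 0.0858% and 0.0756% at day 60. Their log2 share had r = 0.573 with Egln3, and their part in the Egln3 values was not tested.

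Ndrg1 encodes a stress-responsive protein that is also abundant in oligodendrocytes and their myelin. It was raised late, from 156 and 171 CPM in sham to 513 and 590 at day 21 and 495 and 617 at day 60, with all 4 late libraries above every library of the other groups. The rises were 1.76 ± 0.59 (adjusted p = 0.0440) and 1.77 ± 0.59 (0.0449). Both were sensitive to the libraries and the scaling. The day 21 call was lost without any one of 8 libraries (both of sham and of days 7, 21 and 60) at 0.0566 to 0.174. The day 60 call was lost without any one of 10, all but those of day 3, at 0.0518 to 0.175. DESeq2 size factors also ended both (0.0582 and 0.0557). At day 1 the libraries held 277 and 160 CPM, at day 3 329 and 73.1, and at day 7 79.5 and 97.5. The endothelial marker share given with Slc2a1 was 0.567% and 0.140% in the day 3 libraries, in the same order as Ndrg1. It had r = 0.454 with Ndrg1 over the 12 libraries, and its part in the Ndrg1 values was not tested. The day 3 libraries lay on opposite sides of sham, with 0.30 ± 0.58 in the fit and -1.20 without day 3 replicate 1 (adjusted p = 0.0865). The day 7 difference of -0.88 ± 0.58 did not pass, but passed without either day 3 library (0.0453 to 0.0475) and in a fit of the 2 groups alone (0.0408). The step from day 7 to day 21, 2.64 ± 0.61, did not pass (adjusted p = 0.0935) and passed with the replicate block (0.0315), in DESeq2 (0.000360), in a fit of the 2 groups alone (0.0447) and without either day 3 library (0.0252 to 0.0259). Day 60 against day 1 (1.35 ± 0.59) did not pass, but passed without either day 3 library (0.0408 to 0.0423). The nearest genes in pattern were Cd8b1 (r = 0.935) and Notum (0.924). The summed share of the 11 markers of the oligodendrocyte lineage, most of it Mbp, was 0.929% to 1.08% of the counts in sham and 0.107% to 0.216% at days 21 and 60. Of these markers 4 fell and 1 rose at day 21, and 6 fell and 1 rose at day 60, with Cldn11 the one that rose. Their log2 share had r = -0.0446 with Ndrg1 over the 12 libraries, and their part in the Ndrg1 result was not tested. Of the 3 other NDRG genes 0 rose, also at an unadjusted p under 0.05 and in DESeq2, and 1, 1, 2, 2 and 1 fell at the 5 times. Over all genes 16.7% to 23.2% were higher and 13.9% to 19.8% lower, and 3 genes are too few to set against these shares. Ndrg4 fell at all 5 times (by 2.59 at day 1 and 4.43 at day 7) and Ndrg2, an astrocyte gene, at days 7 and 21 (by 3.53 and 2.26).

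Between days 21 and 60 edgeR called 0% of all genes in either direction, with 847 genes at an unadjusted p under 0.05 and 114 called by DESeq2. Of the members 0 were called. At an unadjusted p under 0.05 it gave 0 higher and 3 lower, namely Slc16a3 (-2.20 ± 0.55), Pfkfb3 (-1.49 ± 0.41) and Egln3 (-1.47 ± 0.49), and the DESeq2 test called Slc16a3 (0.0261). With the replicate number as a block 7 members in place of 4 were called on day 7 against sham, 8 in place of 5 on day 60, and 2 in place of 0 between days 7 and 21. The calls over all genes went up with the block too, from 6719 to 8459, from 4929 to 6834 and from 69 to 635 in these comparisons. It moved them from 1 to 2 between days 1 and 3, where it added Adm (0.00547) and all genes went from 558 to 1313, and from 2 to 4 between days 3 and 7, where it added Pgk1 (0.00928) and Egln3 (0.0483, and 0.0330 in DESeq2) and all genes went from 983 to 2853. It also called Pgk1 lower at day 60 than at day 1 (0.00917).

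Levels can be compared between genes only per length, as CPM per kilobase of exon. In sham Ldha (146 ± 3.88, SD, n = 2) and Slc2a1 (143 ± 2.06) stood far above Ndrg1 (24.7 ± 1.60) and Pgk1 (19.1 ± 6.43). The levels of Ldha and Pgk1 carry the limit of their near-identical copies, so their places in this order are uncertain. The other 6 were between 0.224 (Stc1) and 1.73 (Egln3). At day 1 Slc2a1 was at 691 ± 342, Ldha at 389 ± 1.04, Adm at 144 ± 110 and Stc1 at 119 ± 80.4 CPM per kilobase. In the mean of 2 libraries Adm and Stc1 at day 1 were thus near the level of sham Ldha and Slc2a1. Replicate 1 was far above replicate 2, with 359.9 and 107.6 CPM for Adm and 739 and 262 for Stc1. The order of Adm and Stc1 there was within their spread. At day 7 Stc1 was back at 0.355 ± 0.110 and Adm at 3.63 ± 0.971, below Pfkfb3 at 9.96 ± 0.450. At day 60 the order was Ldha (337 ± 31.2), Slc2a1 (223 ± 16.8), Ndrg1 (84.3 ± 13.1) and Adm (26.9 ± 11.3), with the other 6 at 10.4 or less.

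Few other genes of glycolysis rose. Of 14 other glycolytic enzyme genes 1 rose at day 1 and 0 at later times, while 16.7% to 23.2% of all genes were higher. At the later times 0 of the 14 were higher at an unadjusted p under 0.05 and in DESeq2 as well. In turn 1, 2, 8, 5 and 3 fell at days 1, 3, 7, 21 and 60, or 4, 4, 8, 9 and 7 by DESeq2, in comparisons where edgeR called 13.9%, 14.2%, 19.8%, 15.4% and 14.8% of all genes lower. The list's median was -0.19, -0.42, -1.26, -1.15 and -1.05. Gapdh and Eno1, low in replicate 1, had standard errors of 2.54 and 3.94 at day 1, so the test could hardly call them. Pkm, pyruvate kinase, rose by 1.10 ± 0.34 at day 1. Near-identical copies cover 65.5% of its longest transcript, so its level is uncertain. Eno2, the neuronal enolase, fell at all 5 times, from 347 and 339 CPM in sham to 21.8 and 22.6 at day 7. Neuron markers took 0.853% to 1% of the counts in sham and 0.0144% to 0.175% in the stroke libraries, and their part was not tested. Aldoc, an aldolase typical of astrocytes, went from 5275 and 5248 CPM in sham to 216 and 218 at day 7, where it fell by 4.601 on the log2 scale. Pfkm, a phosphofructokinase, fell by 2.67 at day 7.

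Of 8 other glucose and lactate transporter genes 1, 3, 3, 3 and 3 rose and 2, 1, 1, 1 and 1 fell at the 5 times. Over all genes 16.7% to 23.2% were higher and 13.9% to 19.8% lower. Slc2a10 rose at all 5 times, by 2.59 ± 0.48 at day 1 and 4.598 ± 0.52 at day 7. Slc2a12 rose from day 3 on, by 2.95, 3.81, 4.56 and 2.66, and Slc2a8 by 1.02 to 1.95 at the same times. Slc2a3, the neuronal glucose transporter, fell at all 5 times, from 33.2 and 33.1 CPM in sham to 5.16 and 2.79 at day 60. Slc2a4 fell at day 1 by 2.89. Of 12 genes of pyruvate entry into mitochondria 0, 1, 1, 0 and 1 rose and 1, 1, 3, 2 and 2 fell, shares near or under those over all genes (16.7% to 23.2% higher and 13.9% to 19.8% lower). Pdp1, a phosphatase that activates pyruvate dehydrogenase, fell at each time from day 3 on, by 1.53 at day 3 and 1.61 at day 60, and Pdk3, a kinase that inhibits it, rose at days 3, 7 and 60 by 1.19, 1.17 and 1.14. Of 10 glycogen genes 2, 2, 2, 1 and 1 rose and 1 fell, at day 7. These shares were also near or under those over all genes. Pgm1 rose at all times, from 10.99 and 18.8 CPM in sham to 209.9 and 137 at day 1. Gbe1, the glycogen branching enzyme, rose at day 1 (1.90), and Pygl, a glycogen phosphorylase, at days 3 and 7 (2.05 and 2.40). Ppp1r3c, which targets phosphatase to glycogen, fell at day 7 by 3.31.

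Of 9 genes of the oxygen sensing system 2 rose at each time, Hif1a and Arnt, and 3, 3, 3, 2 and 2 fell. The share that rose is near that over all genes (16.7% to 23.2%), of which 13.9% to 19.8% were lower. Hif1a went from 42.7 and 66.9 CPM in sham to 292 and 195 at day 1 and 349 and 333 at day 7, a rise of 2.15 ± 0.43 and 2.64 ± 0.44. At day 60, at 105 and 211 CPM, it was still up by 1.53 ± 0.42. Arnt rose by 2.01 at day 1 and 3.28 at day 7. Egln1, the main HIF prolyl hydroxylase, fell at all 5 times by 1.82 to 2.18, Egln2 at days 1 to 21 by 1.30 to 1.63, Arnt2 at days 1, 3 and 7 by 2.20 to 2.97, and Vhl at day 60 by 1.45. HIF alpha is mostly controlled as a protein, which RNA counts do not measure.

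Of 27 other genes known as HIF targets 9, 8, 10, 9 and 9 rose and 2, 2, 7, 4 and 7 fell at the 5 times, with a median of 0.87, 0.73, 0.89, 0.90 and 0.65. Over all genes 16.7% to 23.2% were higher and 13.9% to 19.8% lower, with a median of 0.06, 0.16, 0.13, 0.07 and 0.01. Angptl4, a secreted inhibitor of lipoprotein lipase, went from 8.18 and 6.39 CPM in sham to 610 and 330 at day 1 and stayed at 587 and 656 at day 60. Lox, which cross-links collagen, rose from 3.29 and 2.16 CPM to 1126 and 715 at day 7, and Plod2 and Plod1, which hydroxylate collagen lysines, by 5.06 and 4.43 at day 7. The fibroblast markers had their highest share at that time too, and their part in these genes was not tested. Vegfa, the vascular growth factor, named here after its values were seen, went from 27.4 and 35.9 CPM to 289 and 170 at day 1, a rise of 2.86 ± 0.43, and did not pass at later times. Mxi1, a repressor related to the MAX network, fell at all 5 times by 1.57 to 1.70. Car12, a carbonic anhydrase, was at 2.51 and 7.97 CPM in sham, 30.9 and 16.9 at day 21 and at 0 counts in both day 60 libraries.

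**Figure D4:**
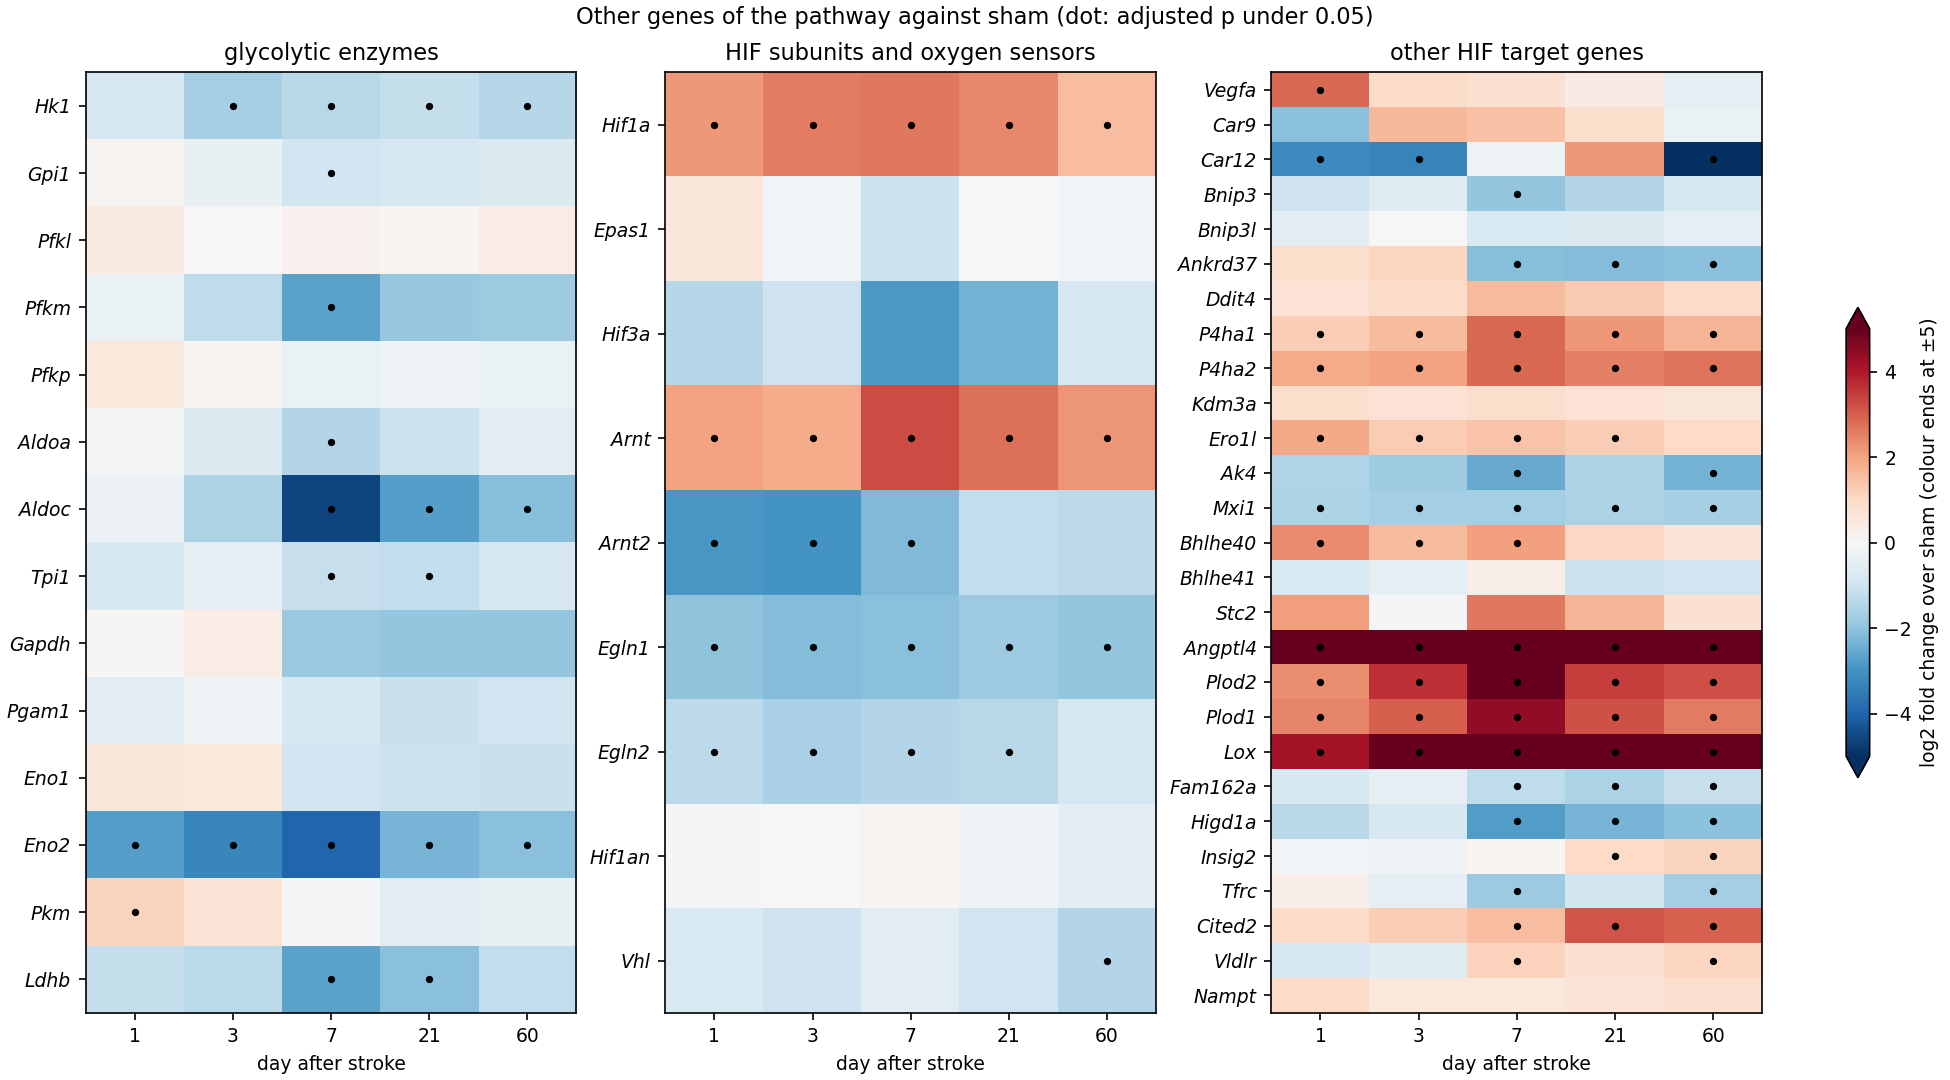
Log2 fold change over sham of other glycolytic enzymes, the oxygen sensing system and other HIF targets at the 5 times (colour, ending at ±5; dots mark an adjusted p under 0.05). Most glycolytic enzymes are blue from day 7 on, while Hif1a, Arnt, Angptl4, Lox, Plod1 and Plod2 are red and dotted at all 5 times; Car12 at day 60 is at 0 counts, so its colour is no measured fold.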

How the data were processed

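RNA counts per gene symbol were analysed for 12 libraries of sorted cells. The deposited values are raw counts, and Bowtie2 2.3.4.2, HTSeq 0.6.1 and mm10 are named per the submitters' processing notes; the annotation, the strand setting and the treatment of reads that match several places are not given in the sources used here. The deposited sample files and the table of the series were identical in 189288 of 189288 values.

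Counts were fitted in R 4.3.3 with edgeR 4.0.16 (TMM scaling, filterByExpr with a minimum count of 10, a coefficient for each of 6 groups, all 12 libraries), which left 6 residual degrees of freedom. Genes were called with the quasi-likelihood F test at a Benjamini-Hochberg adjusted p under 0.05 over 15635 genes, and the standard error is the log2 fold change over the square root of F. The script was tested on simulated data. Log2 CPM for correlations used a prior count of 2. Exon lengths and positions are from GENCODE, near-identical copies from blastn 2.17.0.

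Libraries with the same replicate number deviated together in the data: the replicate 2 minus replicate 1 difference correlated between groups at 0.319 to 0.713 over genes, so 1 alternative fit held that number as a block. Others were DESeq2 size factors, the DESeq2 1.42.0 test, no filter, only the 2 groups compared, and each library left out. The 10 genes, the pathway lists and the marker lists were chosen with earlier results of these data known. All 10 genes are named in every comparison. From each pathway list the rule names up to 4 called genes with the largest change per time, or the 2 most abundant, 3 genes from a marker list, and the 2 genes nearest in pattern to each member. Named marker genes are given for the lists that move with a member. 1 gene of the list of other HIF targets is not reported here and was left out of its counts.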

Additional observations from a re-analysis of the deposited data

Results flagged for a closer look

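Some members differed between 2 times after stroke by the test of that difference. Stc1 was lower at day 3 than at day 1 (log2 difference -5.55, adjusted p = 0.00572), at day 7 than at day 3 (-2.87, adjusted p = 0.0482) and at day 60 than at day 1 (-9.42, adjusted p = 0.000672) in edgeR. Adm was lower at day 7 than at day 3 (-2.93, adjusted p = 0.0258) and at day 60 than at day 1 (-2.42, adjusted p = 0.0310), and Slc16a3 at day 60 than at day 1 (-2.92, adjusted p = 0.0117). The libraries without which a call was lost stand with each gene in the report.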

How the results depend on the processing

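Of 27 calls of members against sham 13 were kept under every alternative. The number of members called moved by over 1.5 times as follows, and smaller moves stand with the genes. With the replicate block it was 7 at day 7 and 8 at day 60 against sham, 2 for day 3 against day 1, 4 for day 7 against day 3 and 2 for day 21 against day 7, and the block changed no other call than those given with the genes. With only the 2 groups compared it was 3 for day 1 against sham, 0 for day 3 against day 1, 0 for day 7 against day 3 and 2 for day 21 against day 7. The DESeq2 test gave 2 for day 3 against day 1, 2 for day 21 against day 7 and 1 for day 60 against day 21. Leaving out 1 library gave 3 to 6, 3 to 6, 3 to 5, 3 to 6 and 1 to 5 for the 5 times against sham in order, 1 to 2 for day 3 against day 1, 0 to 4 for day 7 against day 3, 0 to 1 for day 21 against day 7, 1 to 5 for day 60 against day 1, and 4 to 8 over the 6 groups. The cause of these moves was not tested. The fits of 2 groups and those with 1 library left out hold fewer samples, while the replicate block and the DESeq2 test used all 12 libraries.

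Directions reversed only for differences that were not called. Over the libraries left out the log2 fold change over sham ran, for Egln3 at day 21 -0.31 to 0.29, Egln3 at day 3 -0.41 to 0.19, Ndrg1 at day 1 -0.0787 to 0.63, Ndrg1 at day 3 -1.20 to 0.93, Pgk1 at day 1 -0.41 to 0.75, Pgk1 at day 3 -0.26 to 0.71, Slc2a1 at day 3 -1.42 to 1.40 and Stc1 at day 21 -0.35 to 1.21. In a fit of the 2 groups alone Egln3 at day 21 was 0.000556. Under DESeq2 size factors the all-gene median against sham shifted by -0.0883 to -0.135 over the 5 times, and no member changed direction under them. The filter on low counts changed no member call.

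Replicate 1, with the lower depth, limits Stc1, Hk2, Adm and Slc16a3 in sham, and 2 libraries a group limit all tests.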
